A study of Mus musculus with 4 samples.

Results

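Semaphorins, their plexin and neuropilin receptors, and the plexin domain containing genes were followed in the thalamus and hypothalamus of mice, sampled together at postnatal day 14. Members were taken by symbol, which a probe received through its RefSeq accession. Of the 41174 probes, 14256 had no symbol, and a member's probe among them would be missed. Every gene with a non-control probe named Sema or Plxn followed by a class and number was taken, together with Nrp1, Nrp2, Plxdc1 and Plxdc2. This gave 32 genes, 19 semaphorins, 9 plexins, 2 neuropilins and 2 plexin domain containing genes, out of 18350 symbols with a probe. All 32 passed the filter on dim probes and were among the 21422 genes tested, and 31 had a signal well above background on every array, Sema4b having it on 3 of the 4. Dark-reared mice came from dams that were moved into a cage shrouded in black plastic 1 to 4 days before birth, were cared for under dim red light and stayed in the dark until sampling. Control mice lived in standard cages with a daily cycle of light and dark. Each group had 2 samples labelled as biological replicates, each on its own one-colour Agilent array, and neither strain, sex nor the number of animals in a sample is given, so a p-value measures only the spread between these samples. One slide carried dark-reared 2 and control 2 together; dark-reared 1 and control 1 each had a separate slide.

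Semaphorins are secreted or membrane-bound guidance proteins with a shared extracellular sema domain, best known for repelling growing axons. Plexins are their main receptors, and most secreted class 3 semaphorins reach plexins of the A type through the co-receptors neuropilin-1 and neuropilin-2, while membrane semaphorins bind plexins directly. In the brain after birth the family is also known for roles in synapse number, dendrite shape, myelinating cells and vessels. Each level is a log2 signal from which the 75th percentile of its own array was subtracted, so that 0 is that percentile. They are compared only between arrays for the same probe, since the level of one probe cannot be set against that of another.

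Promoter windows are shown for 3 receptor genes whose signals shared an order over the arrays, Nrp2, Plxna3 and Plxnc1, and for Plxnb3, whose order was another. Each window holds 250 bases before and 50 after the transcription start in RefSeq's GRCm38.p6 annotation, written 5′ to 3′ on the gene's strand, with GC boxes (GGGCGG on either strand) in capitals.
Nrp2 (GRCm38.p6 chr1:62703067-62703366, + strand): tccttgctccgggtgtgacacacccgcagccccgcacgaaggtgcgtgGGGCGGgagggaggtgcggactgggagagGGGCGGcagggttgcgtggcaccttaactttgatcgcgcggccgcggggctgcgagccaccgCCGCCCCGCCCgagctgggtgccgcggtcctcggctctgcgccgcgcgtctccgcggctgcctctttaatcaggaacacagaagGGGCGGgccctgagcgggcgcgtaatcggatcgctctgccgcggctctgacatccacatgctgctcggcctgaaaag
Plxna3 (GRCm38.p6 chrX:74328816-74329115, + strand): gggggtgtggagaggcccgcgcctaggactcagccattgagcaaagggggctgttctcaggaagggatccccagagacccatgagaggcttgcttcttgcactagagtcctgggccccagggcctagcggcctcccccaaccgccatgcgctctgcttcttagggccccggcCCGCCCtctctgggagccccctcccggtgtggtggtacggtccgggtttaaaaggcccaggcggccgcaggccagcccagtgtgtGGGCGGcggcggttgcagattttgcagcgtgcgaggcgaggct
Plxnc1 (GRCm38.p6 chr10:94944796-94945095, - strand): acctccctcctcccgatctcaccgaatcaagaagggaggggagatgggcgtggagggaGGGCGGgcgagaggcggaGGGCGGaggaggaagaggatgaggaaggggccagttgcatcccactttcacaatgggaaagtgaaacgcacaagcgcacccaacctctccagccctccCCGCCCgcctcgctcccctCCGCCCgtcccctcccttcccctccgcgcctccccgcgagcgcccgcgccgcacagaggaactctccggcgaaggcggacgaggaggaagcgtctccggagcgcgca
Plxnb3 (GRCm38.p6 chrX:73756853-73757152, + strand): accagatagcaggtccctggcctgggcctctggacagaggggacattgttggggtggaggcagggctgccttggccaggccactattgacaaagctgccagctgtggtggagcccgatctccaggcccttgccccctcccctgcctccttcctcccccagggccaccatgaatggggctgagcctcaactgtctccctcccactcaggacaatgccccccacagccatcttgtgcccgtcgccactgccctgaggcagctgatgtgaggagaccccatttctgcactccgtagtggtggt
The first 3 windows held 5, 2 and 4 GC boxes and 37, 18 and 30 CG dinucleotides, and the window of Plxnb3 held 0 and 4. Of other members with the lowest and highest samples of Plxnb3, Sema3e held 2 and 11, Sema3d 0 and 8 and Sema4f 0 and 7. Sema7a and Plxnd1, which had other orders again, each held 2 and 23. Whether these letters go with the order over the arrays was not tested. Windows were found for 25 of the 32 members, 36 windows in all. A GC box was in 26 of the 36 windows, which belong to 20 of the 25 genes, against 35.7% of all 32851 windows of this length. The letters TATAAA were in 0 of the members' windows against 13.6% of all, CCAAT in 7 of 36 against 37.4%, the E-box CACGTG in 3 against 7.15%, and the cAMP response element TGACGTCA in 0 against 1.79%. The median share of G and C was 63.8% in the members' windows and 52.7% in all windows. These matches are descriptions of the letters, and binding was not measured.

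The 4 samples did not hold the same mix of region and cell type markers. Of the 10 thalamus markers, 6 were lowest in dark-reared 1 and 7 highest in control 1, not always the same ones. Of the 8 tested hypothalamus markers these counts were 5 and 7, again not always the same ones. Oligodendrocyte markers were low in dark-reared 2, and choroid plexus and most cortex and hippocampus markers in control 2. Striatal markers were high in dark-reared 1 and control 2. Xist, an X-linked RNA of female cells, was well above background in dark-reared 1 and control 1 and not in the other samples. Ddx3y, from the Y chromosome, was well above background on 3 arrays, with its lowest value in control 1. Dark-reared 1 thus had signal of both genes. The values stand beside the genes below that moved with them.

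No member differed between dark-reared and control mice past the test. In limma, fitted over all 21422 genes with Benjamini-Hochberg adjustment, 0 of 32 members and 0 genes (0%) had an adjusted p under 0.05. The lowest adjusted p of a member was 1.00, and that of any gene 0.299. At an unadjusted p under 0.05 there was 1 member, Sema6c, and 270 genes (1.26%). The largest differences were those of Sema6c at -0.81 and Plxdc1 at -0.70 on the lower side and Sema3b at 0.61 on the higher side, so that no member reached a 2-fold difference, against 2.35% of all genes. The median log2 difference, dark-reared minus control, was -0.054 over the members and -0.0091 over all genes, with 13 members above 0 and 19 below. An exact two-sided permutation test of 2 samples against 2 cannot give a p below 0.333. The 95% intervals were wide for part of the members: the standard error ran from 0.14 (Sema6b) to 1.11 (Nrp2), against a median of 0.31 in the members and 0.20 in all genes.

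**Figure D1:**
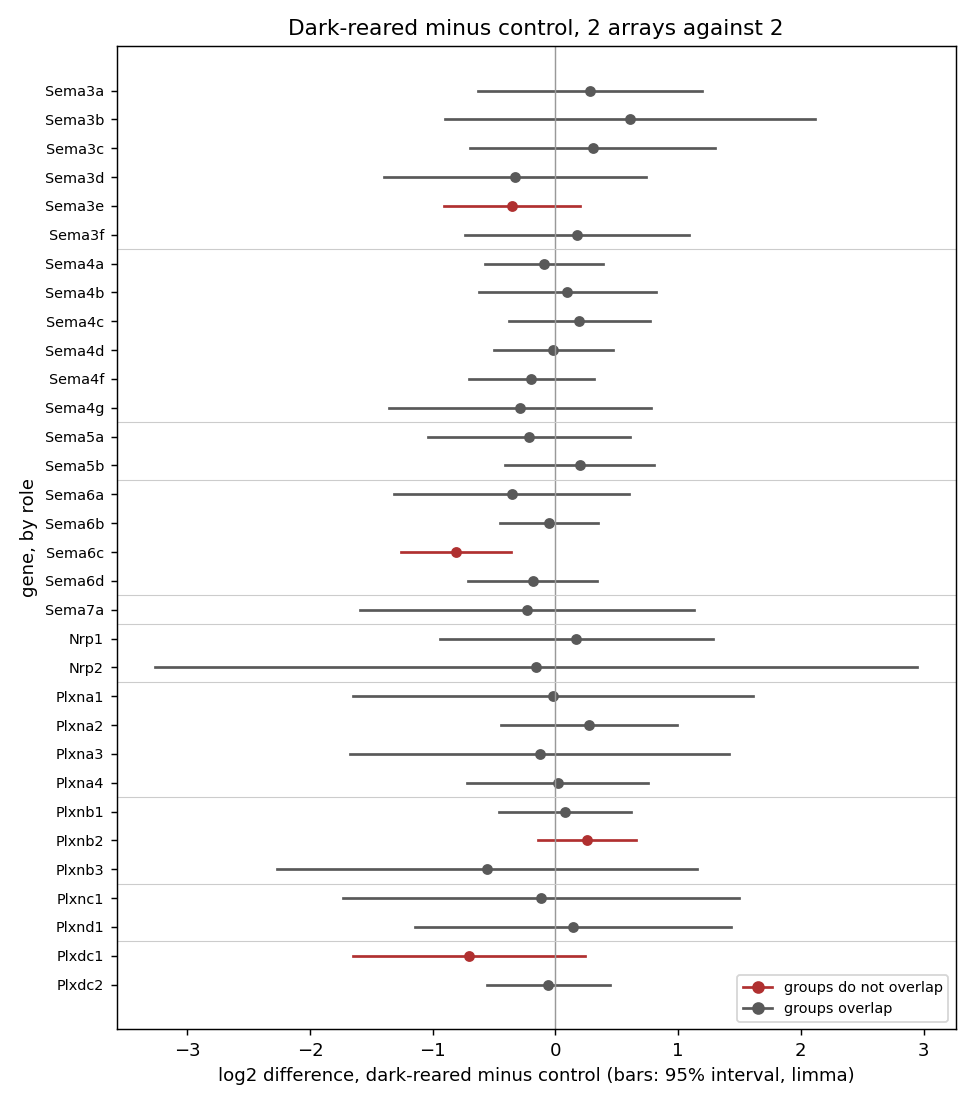
Log2 difference, dark-reared minus control, for each of the 32 genes by role, with the 95% interval from limma as bars; red marks genes whose groups did not overlap. Most intervals span 0, and that of Sema6c (-1.26 to -0.37, unadjusted) does not; the interval of Nrp2 is the widest.

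The groups did not overlap in 4 members, Plxnb2 higher and Sema6c, Sema3e and Plxdc1 lower in dark-reared mice, which is 1 of 32 in the first direction against 9.22% of all genes and 3 of 32 in the second against 9.83%. In either direction this held for 19.1% of all genes, so the count of 4 is no larger a share than the background. None of the 4 was at least 2-fold apart, as 1.2% of all genes were without overlap. The 4 genes are described with their classes below.

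Class 3 semaphorins, the secreted ligands, were split in sign, with 4 above 0 and 2 below and a median difference of 0.23. Sema3a, the axon repellent that signals through neuropilin-1 and plexin A receptors, had log2 values of -1.33 and -1.46 for dark-reared 1 and 2 and -2.09 and -1.27 for control 1 and 2, a difference of 0.28 (standard error 0.33). Control 1 was the lowest sample and the other control the highest, so the groups overlapped; its second probe had the same sign (0.21). Sema3f, a ligand of neuropilin-2, had values of -1.39 and -1.78 for dark-reared 1 and 2 and -2.13 and -1.39 for control 1 and 2, a difference of 0.17 (standard error 0.33). It too was lowest in control 1, on both of its probes. Without control 1 the differences of Sema3a and Sema3f were -0.13 and -0.20.

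Sema3e differs from other class 3 members in binding plexin D1 without a neuropilin. Its values were 0.25 and -0.078 for dark-reared 1 and 2 and 0.55 and 0.33 for control 1 and 2, or a dark-reared mean of 0.087 ± 0.23 (SD, n = 2) against a control mean of 0.44 ± 0.16 (SD, n = 2), a difference of -0.35 (standard error 0.20) with an adjusted p of 1.00 in limma. Both dark-reared samples lay below both controls, but dark-reared 1 was only just below control 2. Its lowest sample, dark-reared 2, and its highest, control 1, were also those of 6 of the 8 oligodendrocyte markers given with Plxnb3 below, whose part in the Sema3e values was not tested. All 3 Sema3e probes gave nearly the same group difference, from -0.37 to -0.35, while the groups overlapped on the other 2 probes, where dark-reared 1 was the highest sample and dark-reared 2 the lowest. Within the shared slide Sema3e differed by -0.40, and the mean of its 3 probes differed by -0.36 between the groups. Plxnd1, its receptor, had another order: 0.45 and -0.32 for dark-reared 1 and 2 and -0.57 and 0.40 for control 1 and 2, a difference of 0.14 (standard error 0.46), high in dark-reared 1 and control 2 and low in the remaining samples.

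Sema3b, a further neuropilin ligand, had the largest positive difference of the family, 0.61 (standard error 0.54), with values of -1.52 and -2.10 for dark-reared 1 and 2 and -1.74 and -3.09 for control 1 and 2. Control 2 alone was low, and dark-reared 2 lay below control 1, so the groups overlapped; without control 2 the difference was -0.068. All 5 tested choroid plexus markers were lowest in control 2 as well, with a mean log2 deviation from the 4-array mean of 1.05 and 0.28 for dark-reared 1 and 2 and 0.93 and -2.26 for control 1 and 2. Their summed signal, in units of the 75th percentile, was 17.5 and 10.5 in dark-reared samples and 16 and 2.51 in controls. Cortex and hippocampus markers were low in control 2 too. Their mean deviations were 0.34 and 0.24 for dark-reared 1 and 2 and 0.23 and -0.81 for control 1 and 2. Of these 8 markers, 5 were lowest in control 2 and 3 in control 1. The part of either list in the Sema3b values was not tested. In bulk tissue, fewer cells of a type and less RNA per cell cannot be told apart.

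Sema3c had values of -3.60 and -2.68 for dark-reared 1 and 2 and -3.38 and -3.51 for control 1 and 2, a difference of 0.30 (standard error 0.36), with dark-reared 2 standing above the other 3 samples. Sema3d, at -3.52 and -4.05 for dark-reared 1 and 2 and -3.03 and -3.88 for control 1 and 2, a difference of -0.33 (standard error 0.38), was highest in control 1 and lowest in dark-reared 2. Neither of these secreted ligands separated the groups. Sema3g is not analysed here.

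Class 4 semaphorins are transmembrane ligands, mostly of plexin B receptors, and none of the 6 spanned 2-fold over the arrays. Sema4d, the ligand of plexin B1, had values of -0.41 and -0.46 for dark-reared 1 and 2 and -0.27 and -0.56 for control 1 and 2, a difference of -0.017 (standard error 0.17). Plxnb1 had values of 0.18 and -0.18 for dark-reared 1 and 2 and -0.12 and -0.023 for control 1 and 2, a difference of 0.078 (standard error 0.19). In both genes the group difference was smaller than its standard error. The second Sema4d probe ranged more widely, from -4.16 in dark-reared 2 to -2.82 in dark-reared 1.

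Sema4c and Sema4g are ligands of plexin B2. Sema4c had values of -0.95 and -1.20 for dark-reared 1 and 2 and -1.09 and -1.44 for control 1 and 2, a difference of 0.19 (standard error 0.21), and its second probe had the opposite sign at -0.15. Sema4g had values of -0.19 and 0.75 for dark-reared 1 and 2 and 0.75 and 0.39 for control 1 and 2, a difference of -0.29 (standard error 0.38), dark-reared 1 alone being low. Plxnb2 itself was the only member with both dark-reared samples above both controls. Its values were 1.63 and 1.72 for dark-reared 1 and 2 and 1.38 and 1.45 for control 1 and 2, or a dark-reared mean of 1.67 ± 0.062 (SD, n = 2) against a control mean of 1.42 ± 0.046 (SD, n = 2). The difference was 0.26 (standard error 0.14, 95% interval -0.14 to 0.66, limma adjusted p = 1.00), a 1.20-fold higher signal, and 0.27 within the shared slide. The second probe of Plxnb2 differed by 0.13 with overlapping groups, since dark-reared 1 lay between the controls there.

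The remaining class 4 members differed little. Sema4a had values of 1.75, 2.00, 2.04 and 1.89 (dark-reared 1, then 2, then control 1, then 2), a difference of -0.090 (standard error 0.17). Sema4f, in the same order, had values of 0.11, -0.18, 0.25 and 0.069, a difference of -0.20 (standard error 0.18). Sema4b had values of -4.64, -4.25, -4.78 and -4.30 and was well above background on 3 arrays; its difference was 0.097 (standard error 0.26). In each of these 3 genes the groups overlapped.

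Class 5 semaphorins carry thrombospondin repeats beside the sema domain. Sema5a, a ligand of plexin B3, had values of 1.28 and 1.42 for dark-reared 1 and 2 and 1.92 and 1.21 for control 1 and 2, a difference of -0.21 (standard error 0.29). Control 1 stood above the rest, on its second probe as well. Sema5b had values of 0.34 and 0.53 for dark-reared 1 and 2 and 0.021 and 0.46 for control 1 and 2, a difference of 0.20 (standard error 0.22), and was lowest in control 1. The 3 Sema5b probes differed in sign, from -0.021 to 0.24.

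Class 6 semaphorins are transmembrane ligands of plexin A receptors, and all 4 were below 0, with a median difference of -0.27. Sema6c had values of -3.44 and -3.30 for dark-reared 1 and 2 and -2.64 and -2.46 for control 1 and 2, or a dark-reared mean of -3.37 ± 0.10 (SD, n = 2) against a control mean of -2.55 ± 0.13 (SD, n = 2). Both dark-reared samples lay below both controls by more than the spread within either group, and the difference was -0.81 (standard error 0.16, unadjusted p = 0.00737 and adjusted p = 1.00 in limma), a 1.76-fold lower signal. Within the shared slide it was -0.83. The second Sema6c probe, listed under the same RefSeq transcript, did not show it: its values were -3.57 and -2.74 for dark-reared 1 and 2 and -3.29 and -3.40 for control 1 and 2, a difference of 0.19. The mean of both probes differed by -0.31, and normexp background correction gave -0.50 for the probe that stands for the gene.

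Sema6a, a ligand of plexins A2 and A4, had values of 0.60 and 0.18 for dark-reared 1 and 2 and 1.13 and 0.36 for control 1 and 2, a difference of -0.36 (standard error 0.34), with control 1 highest on both probes. Sema6b, a ligand of plexin A4, had the narrowest span of the 32 genes, with values of 1.93 and 1.83 for dark-reared 1 and 2 and 1.92 and 1.95 for control 1 and 2, a 1.08-fold span and a difference of -0.052 (standard error 0.14). Sema6d, a ligand of plexin A1, had values of 1.99 and 2.30 for dark-reared 1 and 2 and 2.42 and 2.24 for control 1 and 2, a difference of -0.19 (standard error 0.19). In these 3 genes the groups overlapped. A second Sema6d probe, for another transcript, did not pass the background filter.

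Sema7a is held at the membrane by a lipid anchor and binds plexin C1 and integrin beta-1. Its values were 3.95 and 2.65 for dark-reared 1 and 2 and 3.45 and 3.62 for control 1 and 2, or a dark-reared mean of 3.30 ± 0.92 (SD, n = 2) against a control mean of 3.53 ± 0.12 (SD, n = 2), a difference of -0.23 (standard error 0.49). Dark-reared 2 was low and dark-reared 1 high, with the controls between them, so the spread within the dark-reared group was larger than the group difference. Plxnc1 ran the other way: its values were 0.49 and 2.06 for dark-reared 1 and 2 and 1.46 and 1.33 for control 1 and 2, a difference of -0.12 (standard error 0.58), dark-reared 1 being low and dark-reared 2 high. Its second probe had the same lowest and the same highest sample.

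The neuropilins differed little between the groups and widely between arrays. Nrp2 had log2 values of 0.40 and 3.51 for dark-reared 1 and 2 and 2.13 and 2.10 for control 1 and 2, a span of 8.61-fold, the largest of the family. The controls were nearly equal and lay between the dark-reared samples, with a dark-reared mean of 1.95 ± 2.20 (SD, n = 2) against a control mean of 2.11 ± 0.021 (SD, n = 2), a difference of -0.16 (standard error 1.11). On the shared slide alone Nrp2 was higher in the dark-reared sample by 1.41. Leaving out dark-reared 1 gave a group difference of 1.40, and leaving out dark-reared 2 gave -1.71. Nrp1, also a co-receptor of vascular endothelial growth factor, had values of -1.83 and -0.89 for dark-reared 1 and 2 and -1.29 and -1.77 for control 1 and 2, a difference of 0.17 (standard error 0.40). It was likewise lowest in dark-reared 1 and highest in dark-reared 2 on both probes, though dark-reared 1 and control 2 were close.

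Plexin A receptors, which transmit class 3 signals with neuropilins and bind class 6 ligands directly, included 2 genes with the same order over the arrays as Nrp2. Plxna3 had values of -0.71 and 0.79 for dark-reared 1 and 2 and 0.23 and 0.11 for control 1 and 2, a difference of -0.13 (standard error 0.55). Its second probe gave -4.31, -3.09, -3.54 and -3.78, in the same order of samples. Plxna3 lies on the X chromosome, and the Xist and Ddx3y values given with Plxnb3 below differ between the samples; their part in the Plxna3 values was not tested. Plxna1 had values of 0.34 and 1.84 for dark-reared 1 and 2 and 1.37 and 0.84 for control 1 and 2, a difference of -0.019 (standard error 0.58). The second Plxna1 probe did not share this order, with values of -0.29, -0.51, -0.45 and 0.18, highest in control 2 and lowest in dark-reared 2.

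The other plexin A genes varied less. Plxna4 had values of 1.38 and 2.01 for dark-reared 1 and 2 and 1.64 and 1.70 for control 1 and 2, a difference of 0.019 (standard error 0.26), and its other 2 probes were below 0, at -0.37 and -0.16. Plxna2 had values of 2.56 and 2.50 for dark-reared 1 and 2 and 1.95 and 2.56 for control 1 and 2, a difference of 0.27 (standard error 0.26). Control 1 was the low sample on all 3 Plxna2 probes, whose differences lay between 0.20 and 0.27, and without control 1 the difference of the brightest probe was -0.032.

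Plxnb3, the receptor of Sema5a, is a plexin known from oligodendrocytes. Its values were 2.67 and 1.12 for dark-reared 1 and 2 and 2.78 and 2.13 for control 1 and 2, or a dark-reared mean of 1.90 ± 1.09 (SD, n = 2) against a control mean of 2.45 ± 0.46 (SD, n = 2), a difference of -0.56 (standard error 0.61). Dark-reared 2 was the low sample, and without it the difference was 0.22. All 8 tested oligodendrocyte markers, the myelin gene Mbp among them, were also lowest in dark-reared 2, with mean deviations of 0.75 and -1.46 for dark-reared 1 and 2 and 0.82 and -0.11 for control 1 and 2. Their summed signal was 542 and 131 in dark-reared samples and 575 and 331 in controls, in units of the 75th percentile. Mbp had values of 7.48, 5.46, 7.53 and 6.88 (dark-reared 1, then 2, then control 1, then 2). Plxnb3 lies on the X chromosome, and Xist, the X-linked RNA expressed from the silenced X of female cells, had values of 3.40, -5.83, 3.77 and -6.50 in the same order. Ddx3y, from the Y chromosome, had values of -0.34, 1.05, -6.56 and 1.16. The part of these genes and markers in the Plxnb3 values was not tested.

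The plexin domain containing genes encode transmembrane proteins named for a stretch shared with plexins. Plxdc1 had values of 1.67 and 0.97 for dark-reared 1 and 2 and 2.29 and 1.76 for control 1 and 2, or a dark-reared mean of 1.32 ± 0.49 (SD, n = 2) against a control mean of 2.02 ± 0.37 (SD, n = 2), a difference of -0.70 (standard error 0.34) with a limma adjusted p of 1.00. Both dark-reared samples were below both controls, with dark-reared 1 just under control 2, and the difference was -0.79 within the shared slide, -1.05 without dark-reared 1 and -0.35 without dark-reared 2. Like 6 of the 8 oligodendrocyte markers, this gene was lowest in dark-reared 2 and highest in control 1, and their part in its values was not tested. Plxdc2 had values of 1.14 and 1.40 for dark-reared 1 and 2 and 1.42 and 1.24 for control 1 and 2, a difference of -0.056 (standard error 0.18), a span of 1.21-fold.

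The arrays differed more in these genes than in most. The span over the 4 arrays had a median of 0.78 in the members and 0.42 in all genes on the log2 scale. It was at least 1, a 2-fold span, in 10 of 32 members (31.2%) against 16% of all genes: Nrp2, Plxnb3, Sema3b, Plxnc1, Plxna1, Plxna3, Plxdc1, Sema7a, Sema3d and Plxnd1. The dark-reared samples were farther apart than the controls for most plexins, with a median gap of 0.77 between dark-reared samples and 0.13 between controls over the 9 plexin genes. Over all genes those gaps were 0.26 and 0.21. In semaphorins the order was the other way, 0.31 and 0.35.

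**Figure D2:**
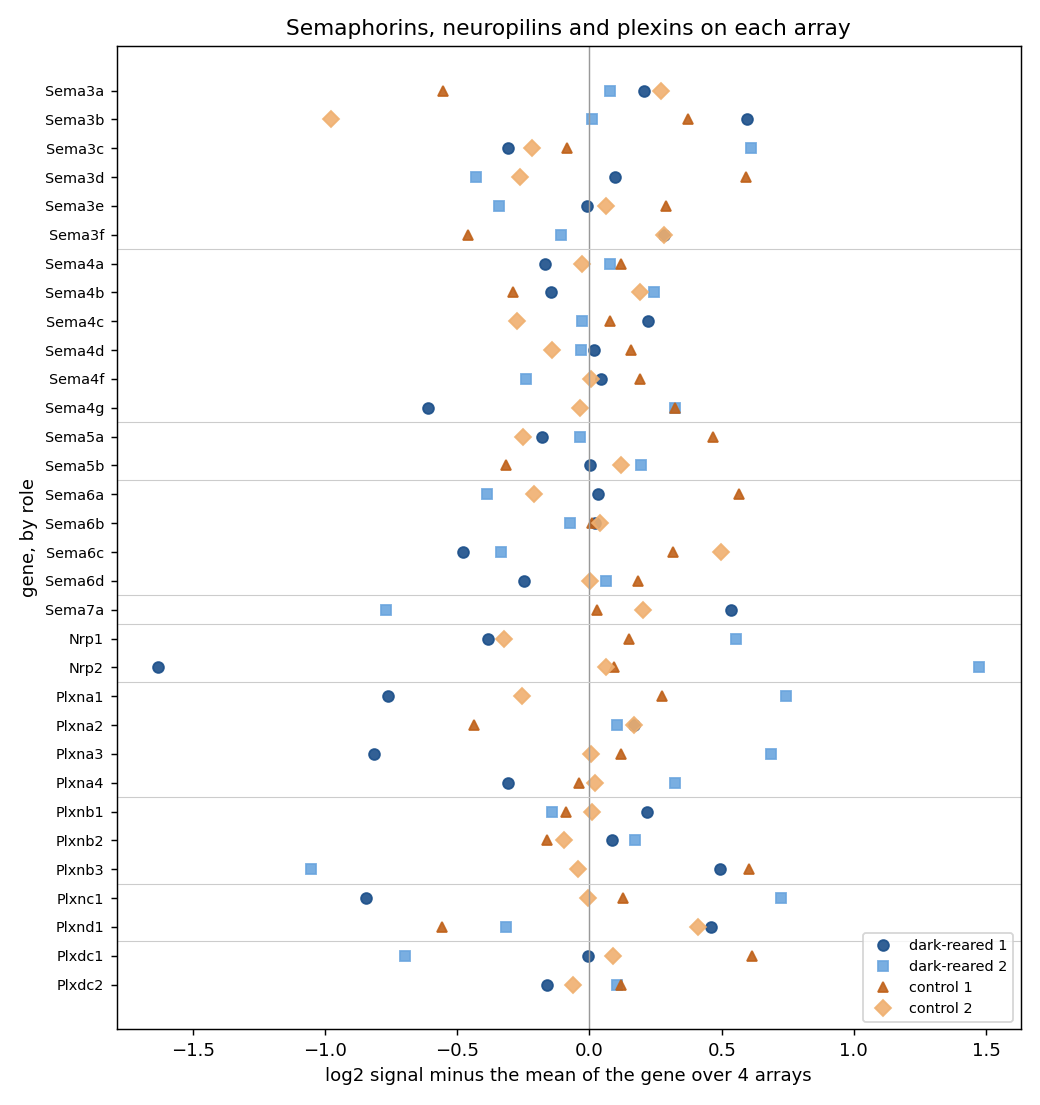
Log2 signal of each of the 32 genes on each array, as the deviation from the gene's mean over the 4 arrays, grouped by role, with 1 point per array and no error bars. Dark-reared 1 and dark-reared 2 lie at opposite ends for Nrp2, Plxna1, Plxna3 and Plxnc1, while Sema6b stays within a narrow band.

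Receptors were most often at their ends in the dark-reared samples. Of 11 plexin and neuropilin genes, 6 were lowest in dark-reared 1 and 7 highest in dark-reared 2, each held by 28.4% of all genes. Among the 19 semaphorins, 9 were highest in control 1, against 23.9% of all genes. The order with dark-reared 1 lowest and dark-reared 2 highest was found in 7 members, Sema3c, Nrp1, Nrp2, Plxna1, Plxna3, Plxna4 and Plxnc1, against 14.7% of all genes, and together with a 2-fold span in 4 members against 2.96%. Dark-reared 2 was lowest and control 1 highest in 6 members, Sema3d, Sema3e, Sema4f, Sema6a, Plxnb3 and Plxdc1, against 8.39% of all genes. These orders were noticed in the values and have no test.

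Markers of the regions and cell types in the tissue moved between the same arrays. All 10 thalamus markers were well above background on every array, and 6 of them were lowest in dark-reared 1, with mean deviations of -1.23 and 0.47 for dark-reared 1 and 2 and 1.15 and -0.39 for control 1 and 2. Their summed signal was 8.53 and 27 in dark-reared samples and 49.5 and 12.8 in controls. Control 1 was the highest sample for 7 of the 10, unlike for Nrp2. The other 3, Lhx9, Gbx2 and Calb2, were lowest in dark-reared 1 and highest in dark-reared 2 as Nrp2 was; Lhx9 had values of -4.47, -0.90, -1.38 and -2.86 (dark-reared 1, then 2, then control 1, then 2), and Calb2 -2.02, 1.75, 1.55 and 0.17. Of 12 hypothalamus markers 8 were tested, Pmch, Agrp, Sim1 and Otp not being among the genes tested. Mean deviations of the 8 were -1.94 and 0.46 for dark-reared 1 and 2 and 1.57 and -0.092 for control 1 and 2. Of the 8, 5 were lowest in dark-reared 1 and 7 highest in control 1. Control 1 was also the highest sample for 9 of the 19 semaphorins, against 23.9% of all genes. Meninges and vessel wall markers (6 of 6 tested) had the sample order of Nrp2 in their mean deviations. These were -0.35 and 0.30 for dark-reared 1 and 2 and 0.16 and -0.10 for control 1 and 2. Of the 6, 4 were lowest in dark-reared 1 and highest in dark-reared 2. Cortex and hippocampus markers (8 of 8 tested) ran from -0.81 in control 2 to 0.34 in dark-reared 1. Of the other lists, the lowest and highest mean deviations over the arrays were -0.17 and 0.21 for oligodendrocyte precursor (3 of 3 markers tested). They were -0.12 and 0.13 for astrocyte (6 of 6 markers tested), -0.34 and 0.28 for microglia (7 of 7 markers tested) and -0.94 and 0.52 for pituitary (2 of 5 markers tested). The part of these markers in the receptor and semaphorin values was not tested.

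Striatal markers and Plxnd1 were high in the same samples. All 7 markers had their 2 highest values in dark-reared 1 and control 2, with mean deviations of 0.87 and -0.86 for dark-reared 1 and 2 and -0.67 and 0.66 for control 1 and 2 and a summed signal of 285 and 94.3 in dark-reared samples and 109 and 269 in controls. The striatum is not part of the labelled tissue. Drd1, a dopamine receptor of striatal projection neurons, had values of 2.71, 1.33, 1.15 and 2.52 (dark-reared 1, then 2, then control 1, then 2), and Plxnd1 had 0.45, -0.32, -0.57 and 0.40 in that order. Endothelial markers, a further cell type known to carry plexin D1, moved less, with mean deviations of 0.12 and -0.10 for dark-reared 1 and 2 and -0.085 and 0.073 for control 1 and 2. Microglia markers were also high in dark-reared 1 and control 2. Their mean deviations were 0.19 and -0.13 for dark-reared 1 and 2 and -0.34 and 0.28 for control 1 and 2. Plxnd1 was not alone, since Sema3a, Sema3f, Sema6b, Sema7a, Plxna2 and Plxnb1 also had their 2 highest values in dark-reared 1 and control 2. The part of these 3 lists in the values of Plxnd1 and the other members named was not tested.

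**Figure D3:**
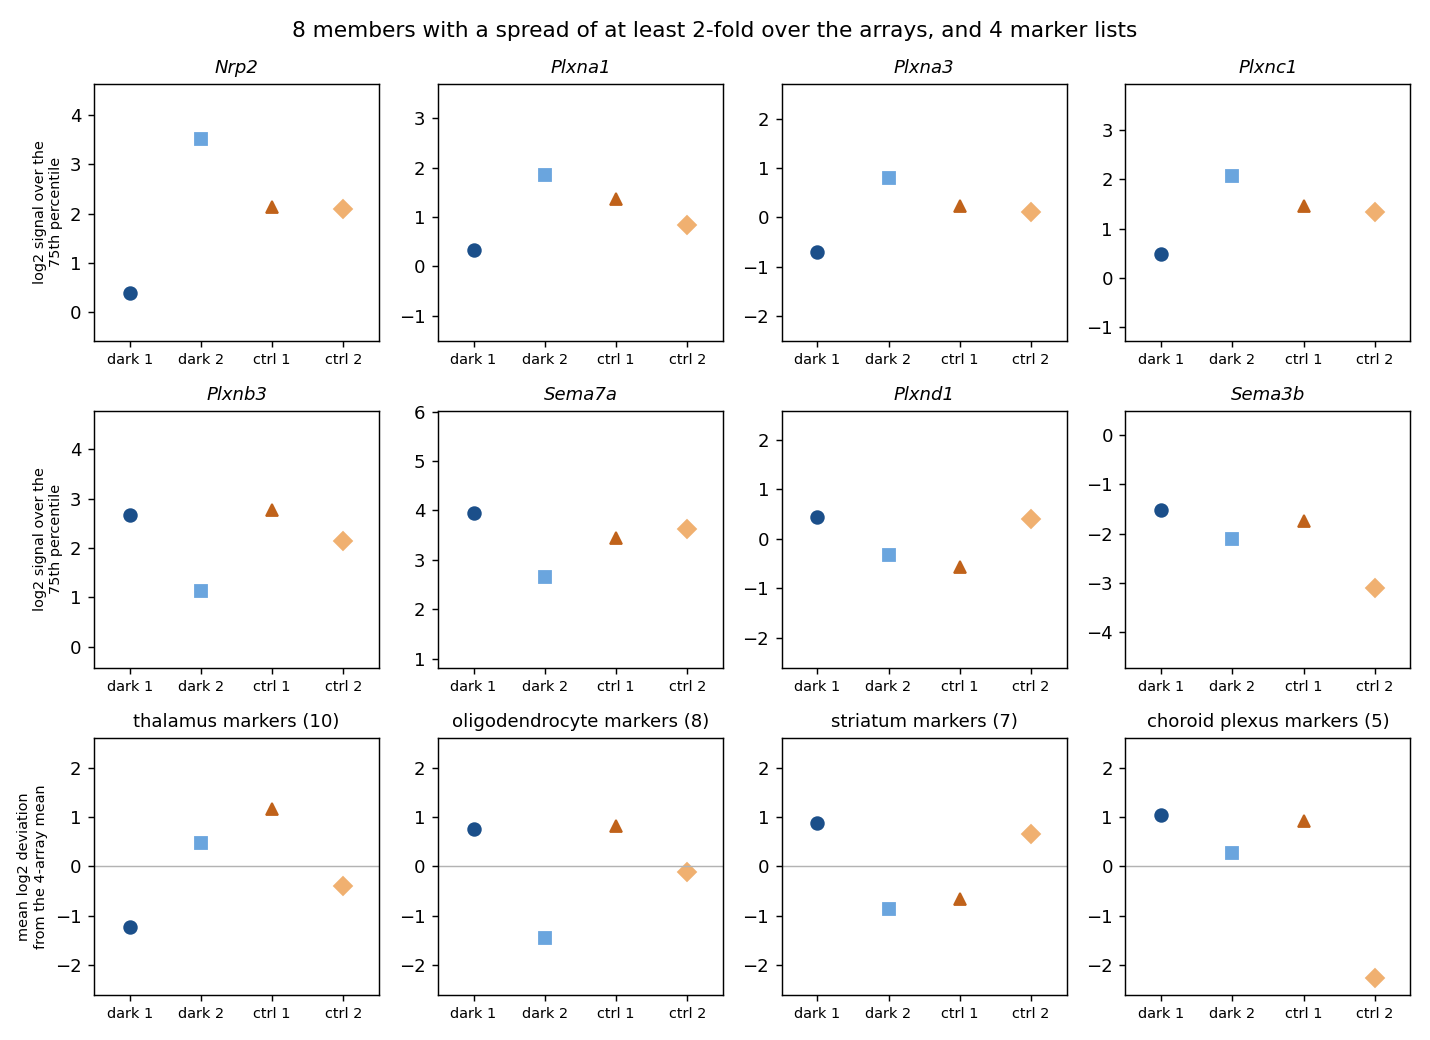
Log2 signal of 8 of the 10 genes with a 2-fold span (upper panels, in units of log2 over the 75th percentile, each axis spanning the same range) and the mean deviation of 4 marker lists from their 4-array mean (lower panels), with 1 point per array. Nrp2, Plxna1, Plxna3 and Plxnc1 are lowest in dark-reared 1 and highest in dark-reared 2; Plxnb3 and the oligodendrocyte markers are lowest in dark-reared 2, Plxnd1 and the striatum markers are high in dark-reared 1 and control 2, and Sema3b and the choroid plexus markers are lowest in control 2.

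Within the slide that held both groups, 18 members were higher and 14 lower in dark-reared 2 than in control 2, with a median difference of 0.067. The sign was opposite to that of the group difference in 15 of 32 members (46.9%), against 35.5% of all genes. The 4 members without overlap kept theirs, as they must. Nrp2 at 1.41, Plxnb3 at -1.01 and Plxna1 at 1.00 lay farthest from 0 on that slide, and these values have no replicate and no test.

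Several probes for the same gene gave a check within each sample. Of the 54 probes for members 53 passed the filter, and 17 genes had more than 1 that passed. All probes had the same sign of difference in 12 of these genes and both signs in 5, Plxna4, Sema4c, Sema4d, Sema5b and Sema6c. The lowest sample was the same on all probes in 11 genes and the highest in 8. Sema3e, Plxna2, Sema3a and Sema3f had probes with like differences, whereas those of Sema6c lay on both sides of 0. Probes of the same gene share their samples, so they are no replicates.

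**Figure D4:**
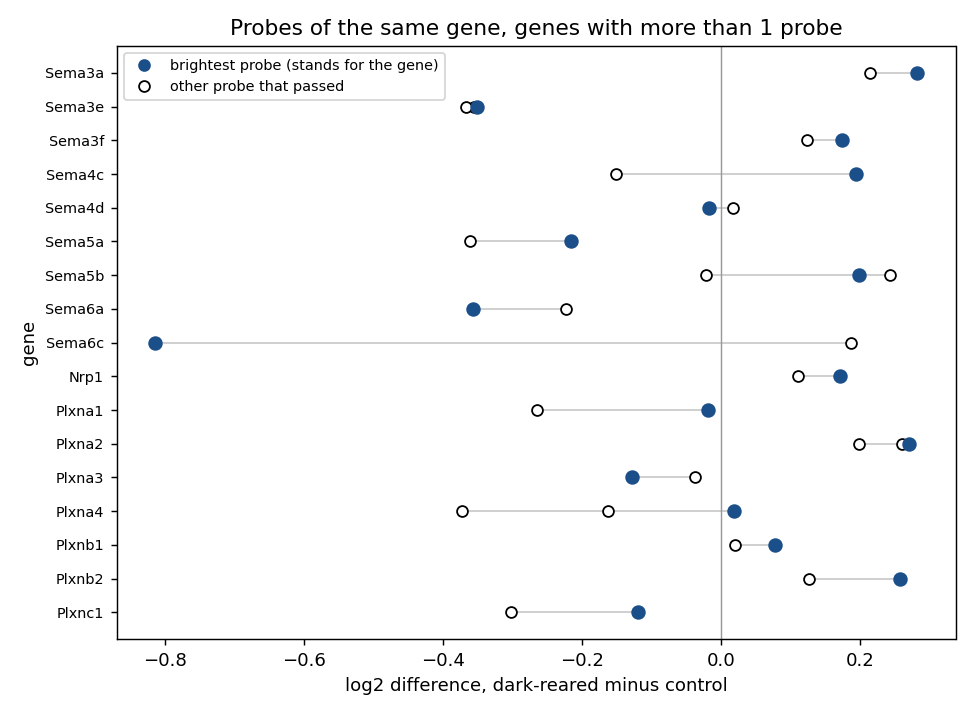
Log2 difference, dark-reared minus control, for every probe that passed in the 17 genes with more than 1 such probe; the filled point is the brightest probe, which stands for the gene, and open points are the others. Probes lie close together for Sema3e, Sema3f and Plxna2 and on both sides of 0 for Sema6c.

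Partners of the pathway were read from a list of 15 co-receptors and 44 cytoplasmic genes. All 15 co-receptors and 42 of the cytoplasmic genes were tested, and 0 of 57 passed in limma. At an unadjusted limma p under 0.05 there was 1 of 57, Met, against 1.26% of all genes. Met, the hepatocyte growth factor receptor, which associates with plexin B receptors, had values of -1.78 and -1.03 for dark-reared 1 and 2 and -3.13 and -3.58 for control 1 and 2, a difference of 1.95 (standard error 0.34). It was the only gene of the list at least 2-fold apart without overlap, against 1.2% of all genes. Of the co-receptors 3 were above 0 and 12 below (median -0.039), and of the cytoplasmic genes 22 were above and 20 below (median 0.0080). The groups did not overlap in 6 of the 57 genes, against 19.1% of all genes in either direction. Of the 57, 5 were higher in dark-reared mice without overlap, against 9.22% of all genes.

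The next largest differences of the pathway list were not separated by group. Cd72, a receptor of Sema4d on immune cells, had values of -1.60 and -5.01 for dark-reared 1 and 2 and -3.35 and -1.67 for control 1 and 2, a difference of -0.79 (standard error 1.36). Its signal was well above background on 3 of the 4 arrays, and not on the remaining one, so the difference rests partly on a value near background. Dpysl5, a member of the collapsin response mediator family that acts downstream of Sema3a, had values of -1.37 and -0.24 for dark-reared 1 and 2 and -1.15 and -1.20 for control 1 and 2, a difference of 0.37 (standard error 0.42), and was highest in dark-reared 2. The small GTPases Rras2 and Rap1a, related to the Ras-like targets of the plexin GAP domain, were lowest in dark-reared 2, Rras2 at 2.48, 1.52, 2.62 and 2.12 and Rap1a at 2.59, 1.67, 2.76 and 2.20 (dark-reared 1, then 2, then control 1, then 2). Both were highest in control 1, the same ends as in 6 of the 8 oligodendrocyte markers, whose part in these values was not tested. Limk1, a kinase that acts on cofilin, was lowest in dark-reared 1, with a difference of -0.34 (standard error 0.45) and values of 2.82, 3.96, 3.92 and 3.54 in the same order. Met apart, these differences were smaller than the gap between the dark-reared samples.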

How the data were processed

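Total RNA of 4 samples was measured on one-colour Agilent whole-genome arrays. The authors' deposited spot intensity is the processed signal of Agilent Feature Extraction, version 10.7.3.1 in the file headers and 10.7 in the submitters' processing notes, which is background-subtracted and detrended within an array, per the statistics in the file headers, and not scaled between arrays. A second deposited table holds log2 values by probe, normalized by the authors with a method not given in the sources used here, and served as an alternative alone. Each array had 43379 non-control spots for 41174 probes. Outlier spots (79 to 103 per array) were left out, log2 spot values of a probe averaged, and the 75th percentile of the array (773 to 804) subtracted. Of the probes, 65.9% to 73.3% were well above background on an array and 0 spots were saturated. RefSeq accessions of 26918 probes matched a symbol (GRCm38.p6 table). A probe was kept (28444 were) if both arrays of either group had it well above background, and the brightest kept probe stood for its gene.

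The comparison used lmFit and eBayes of limma 3.58.1 under R 4.3.3, two-sided, with p-values adjusted by Benjamini-Hochberg across the 21422 genes and a threshold of 0.05, checked on simulated data. The number of arrays, 4, limits the precision. The 32 members, the pathway and marker lists and the alternatives were chosen with earlier results of these data known. Every member is named; of the pathway list, the 6 largest differences are. Alternatives were median and quantile normalization, normexp (offset 50, on median signals, outlying local backgrounds replaced by the array median), the authors' deposited log2 values, leaving out the filter, requiring all 4 arrays, the mean of a gene's probes, outlier spots kept, the replicate number as a block, the difference within slide 3, and each array left out; crossed pairs as a block were added after the data were seen.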

Additional observations from a re-analysis of the deposited data

How the results depend on the processing

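No member, and no gene, passed the adjusted threshold under any of the fitted alternatives, and the count of members at least 2-fold apart without overlap stayed at 0 with all 4 arrays. The count of members without overlap, 4 in the main fit, was 3 with normexp and 3 with the mean of a gene's probes. Median normalization turned the signs of Plxna1 (0.013) and Sema4d (0.015), normexp those of Plxna4 (-0.027), Sema4b (-0.059) and Sema4c (-0.076), and the mean of a gene's probes those of Plxna4 (-0.17) and Sema4d (0.00038). The cause was not tested. Under each setting with 4 arrays 29 to 32 members kept their sign, or 31 of 31 where all arrays had to be above background; within slide 3 alone, where nothing is replicated, 15 had the opposite sign and the member median was 0.067. The replicate number gave no pairing: the deviations of dark-reared 1 and control 1 from their group means correlated at -0.16 over genes, and with the replicate block 0 genes and 0 members passed, with the same member median of -0.054. With the crossed pairing as a block, added after the data were seen, 0 genes passed. Leaving out 1 array, where the lone sample is assumed to vary like the other group, gave 12 to 20 members without overlap (12 without control 1 and 20 without each of the others) and 0 to 3 at least 2-fold apart, with fewer samples to separate: over all genes no overlap was then found in 65.4%, 65.1%, 49.5% and 58.1% without dark-reared 1, dark-reared 2, control 1 and control 2, against 62.5%, 62.5%, 37.5% and 62.5% of members, and with a 2-fold difference in 2.47% to 4.11% of genes; the member median ran from -0.16 to 0.052. Over the same 4 fits the differences that changed sign ran as follows: Nrp1 -0.30 to 0.64, Nrp2 -1.71 to 1.40, Plxdc2 -0.19 to 0.076, Plxna1 -0.77 to 0.73, Plxna2 -0.032 to 0.57, Plxna3 -0.88 to 0.62, Plxna4 -0.30 to 0.33, Plxnb1 -0.10 to 0.26, Plxnb3 -1.33 to 0.22. In the same way: Plxnc1 -0.91 to 0.67, Plxnd1 -0.34 to 0.63, Sema3a -0.13 to 0.69, Sema3b -0.068 to 1.28, Sema3c -0.16 to 0.76, Sema3d -0.76 to 0.096, Sema3f -0.20 to 0.54, Sema4a -0.21 to 0.035, Sema4b -0.14 to 0.34. The last of them: Sema4d -0.17 to 0.13, Sema4g -0.76 to 0.18, Sema5a -0.57 to 0.14, Sema5b -0.019 to 0.42, Sema6a -0.74 to 0.031, Sema7a -0.89 to 0.42. Sema6c (-0.90 to -0.72), Plxdc1 (-1.05 to -0.35), Sema3e (-0.52 to -0.19) and Plxnb2 (0.21 to 0.30) kept their sign there, as genes whose groups do not overlap must. Sema4c, Sema4f, Sema6b and Sema6d, whose groups overlapped, kept theirs as well. Signal over background limits Sema4b, which 1 array did not measure well above background.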
